A study of Arabidopsis thaliana with 24 samples.

Results

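Extensins are rod-shaped structural proteins of the plant cell wall, and 10 genes that encode them were followed in the roots of Arabidopsis thaliana. They were picked by identifier from a count table of 33602 genes: AT5G06630, AT5G06640 (EXT10), AT4G13390 (EXT12), AT1G26240, AT2G24980 (EXT6), AT3G54580, AT3G54590 (HRGP1), AT4G08400, AT4G08410 and AT5G35190 (EXT13). AT5G06630 was picked because its counts were low in the hyl1 mutant in an earlier look at the same libraries. What EXT12 was picked for is not recorded, so its values are a description, and nothing is read from its place in a count of called genes. For the other 8 genes the choice was made with those earlier results known. All 10 passed the filter on low counts, as did 23219 genes in all.

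The seedlings made a tagged form of ribosomal protein L18 (HF-RPL18, with His and FLAG epitopes), which allows ribosomes and the mRNAs on them to be pulled down with an anti-FLAG resin, so the counts stand for ribosome-associated RNA and not for total RNA. The tagged protein was driven by the viral 35S promoter, which is active in most tissues, or by 1 of 5 promoters that stand for root layers: WER for the epidermis, CO2 for the cortex, SCR for the endodermis, SHR for the stele and ACR4 for the columella. Each of the 6 lines existed in wild-type Columbia-0 (Col0) and in the hyl1 mutant, whose allele is not given in the labels, which makes 12 groups of 2 libraries and 24 libraries in total. Roots were taken after 6 days in the light at 22 °C from about 20 plates per sample, and the labels do not say that replicates were grown separately, so a p-value speaks of the spread between these libraries, which may be technical. HYL1 binds double-stranded RNA and helps DICER-LIKE1 to cut microRNAs from their precursors.

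Totals ran from 2868803 to 13575556 counts per library. HYL1 itself had 34 to 145 counts in the Col0 libraries and 1 to 43 in the hyl1 libraries, and was lower in hyl1 by a log2 change of −1.67 ± 0.34 (SE; edgeR adjusted p = 0.00185). By line its change was smallest in SHR, at −0.61 ± 0.80, where the hyl1 libraries had 31 and 35 counts against 50 and 49 in Col0. The next smallest was in CO2, at −1.03 ± 0.81. Of the 6 lines, HYL1 was under an adjusted p of 0.05 in WER alone (edgeR adjusted p = 0.0328). Some libraries stood apart. The hyl1 WER replicates had a correlation of 0.752 across genes, against 0.926 to 0.975 in the other groups, and the summed level of 9 endodermal markers was 2119 CPM in Col0 SCR replicate 1 but 492 in replicate 2. By the library numbers in the labels, the 35S, ACR4, SCR and CO2 lines formed 1 run, and the SHR and WER lines each a separate one. Col0 and hyl1 of a line shared a run of numbers, while in comparisons between lines the WER or SHR promoter and its run cannot be told apart.

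Classical extensins consist of a short motif, a serine followed by 4 prolines, repeated many times with tyrosine-rich spacers. The prolines are hydroxylated and decorated with short arabinose chains, the protein is secreted, and peroxidases join its tyrosines into a network in the wall. Many extensin genes are known from the hair-forming cells of the root epidermis, whose tip-growing hairs need a wall that is both extensible and strong.

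The repeats are shown because they define the family and because near-identical copies can share reads. Each line below is a 39-base stretch that starts with the motif, one of the commonest such stretches of its gene. It is read 5′ to 3′ on the coding strand of the RefSeq TAIR10.1 sequence. The 5 codons of a serine and 4 prolines are in capitals, and the bases that follow are in lower case. The stretch of EXT12 occurs 1 time in its gene, and the others occur 2 to 5 times.
AT5G06630 (chromosome 5, minus strand): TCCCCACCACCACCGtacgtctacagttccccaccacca
EXT10 (chromosome 5, minus strand): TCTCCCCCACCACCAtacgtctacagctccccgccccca
EXT6 (chromosome 2, plus strand): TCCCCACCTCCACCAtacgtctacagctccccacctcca
AT3G54580 (chromosome 3, minus strand): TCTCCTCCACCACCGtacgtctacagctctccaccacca
EXT13 (chromosome 5, plus strand): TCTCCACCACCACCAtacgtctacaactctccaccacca
HRGP1 (chromosome 3, plus strand): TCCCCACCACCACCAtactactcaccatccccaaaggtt
AT4G08400 (chromosome 4, minus strand): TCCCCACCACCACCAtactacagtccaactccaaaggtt
AT4G08410 (chromosome 4, minus strand): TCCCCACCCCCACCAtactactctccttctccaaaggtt
EXT12 (chromosome 4, plus strand): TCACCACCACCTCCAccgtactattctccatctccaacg
AT1G26240 (chromosome 1, minus strand): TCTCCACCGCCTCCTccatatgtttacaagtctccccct
After the motif the first 5 stretches continue with tacgtctac, and the next 3 with tactac. EXT12 and AT1G26240 continue with a further proline codon. The lower-case part of the first 5 and of AT1G26240 ends in a serine codon followed by proline codons, so it is not spacer alone. The stretch of EXT13 also occurs in EXT6. Those of AT4G08400 and AT4G08410 each occur in the other gene of that pair.

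Within the 10 coding sequences, which are 1005 to 2874 bases long, the motif occurred 14 times in EXT13, 22 times in EXT12, 29 times in AT5G06630, 42 times in EXT10 and 68 times in AT3G54580. Because the codons for the same amino acids vary, most of the genes could still be told apart over 50 bases. None of the 50-base windows of EXT12, AT1G26240 or EXT13 occurred in another gene, and 4.63% of those of AT5G06630 and 4.91% of those of EXT6 did. The exceptions were EXT10, at 32.2%, and the pair AT4G08400 and AT4G08410, which shared a run of 704 bases. Of the windows of AT4G08400, 62.2% lay in another gene, and of those of AT4G08410, 48.2% did. The sources used here do not say how reads with several matches were counted, and the counts of this pair are uncertain as to which copy they belong to.

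**Figure D1:**
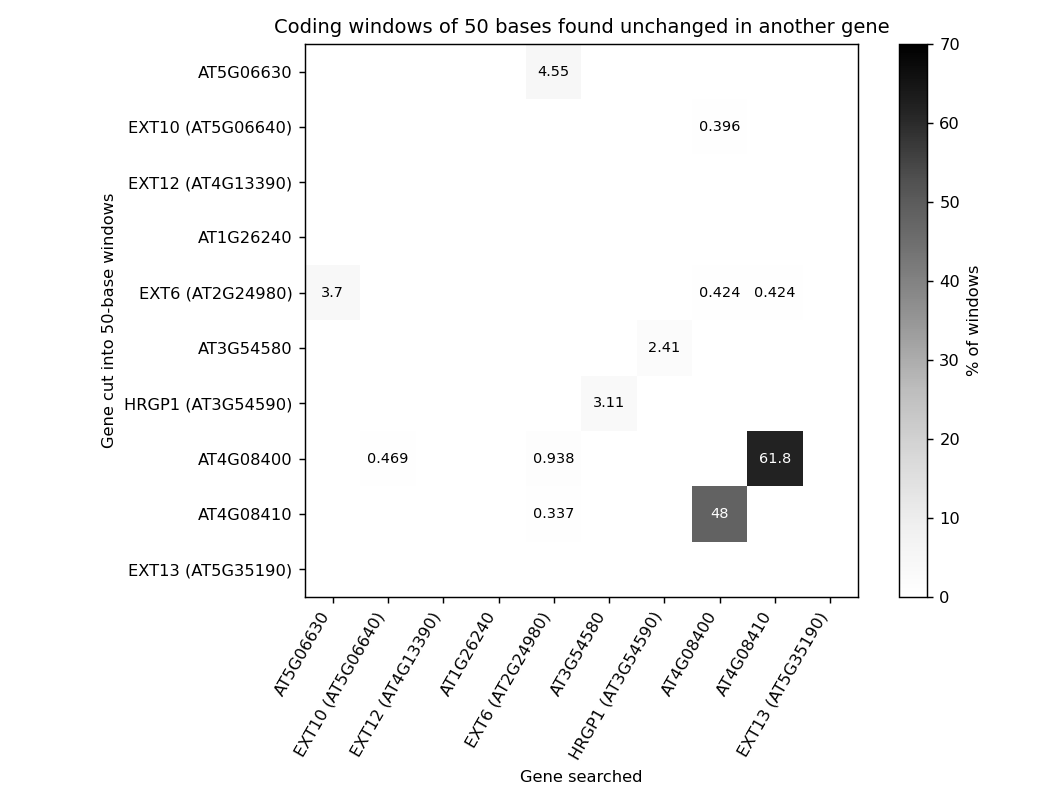
Percentage of the 50-base windows of each extensin coding sequence (rows) that occur unchanged in another of the 10 genes (columns), with empty squares at 0. AT4G08400 and AT4G08410 form the dark block at 61.8% and 48.0%, and every other square is below 5%.

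AT5G06630 and EXT10 are near neighbours on chromosome 5 with the gene AT5G06634 between them, but their longest identical run was 38 bases, whereas AT5G06630 and EXT6 on another chromosome shared 101. EXT10 is overlapped on the opposite strand by AT5G06645, which contained 31.9% of its windows and was not analysed here. The use of strand in counting is not given, and over that part reads of EXT10 may not be told from reads of that gene. AT3G54580 and HRGP1 lie next to each other on opposite strands and shared at most 83 bases.

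The extensin genes were ribosome-associated mainly in the WER line. In that line of Col0 the level per kilobase of coding sequence was highest for EXT13, at 672 ± 180 CPM per kb (SD, n = 2), AT3G54580 at 544 ± 257 and HRGP1 at 501 ± 220. The ranges of these 3 genes overlapped. A middle group held AT4G08400 at 158 ± 42.9, AT4G08410 at 141 ± 38.0, EXT10 at 128 ± 57.5 and EXT6 at 97.1 ± 38.3 CPM per kb. EXT12 at 64.8 ± 23.6, AT5G06630 at 52.5 ± 10.2 and AT1G26240 at 23.8 ± 22.7 CPM per kb were lowest. CPM are counts scaled to the library size after TMM normalization. Neighbours in this order overlapped in their library values, except HRGP1 with AT4G08400 and AT5G06630 with AT1G26240.

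For every gene of the list, both WER libraries were above all 10 libraries of the other lines, in Col0 and again in hyl1. The same held for 10.5% of all tested genes in Col0 and for 8.43% in hyl1. AT3G54580, the gene with the most counts, had 2085 and 1041 CPM in Col0 WER against 48.9 to 587 CPM in the other Col0 libraries. In hyl1 it had 846 and 1513 CPM in WER against 22.1 to 358 CPM elsewhere. The mean of the WER line made up 50.7% (EXT13) to 84.8% (AT1G26240) of the summed means of the 6 lines in Col0. As these are bulk pull-downs, fewer cells of a type and less RNA per cell cannot be told apart.

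Below WER, most of the genes shared the second and the last place. The share of all tested genes with these places is not given, so the counts below describe the 10 genes alone. SHR came second in Col0 for 9 of the 10 genes, and for 8 of these its libraries did not overlap with those of the line that followed. SHR was also second for 9 genes in hyl1, without overlap in all 9. In Col0 the next places were taken by ACR4 and CO2, which followed each other for 9 genes with SHR in second place and overlapped for 8 of them. The SCR line was last in Col0 for 8 genes, next to 35S, and for 5 of these it overlapped with 35S. In hyl1 SCR was last for 7 genes, next to 35S for 3 and to CO2 for 4, without overlap in any of the 7. AT1G26240 departed from this order: outside the WER line it had 1 to 31 counts in Col0 libraries, and in the SHR line 2 and 1.

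**Figure D2:**
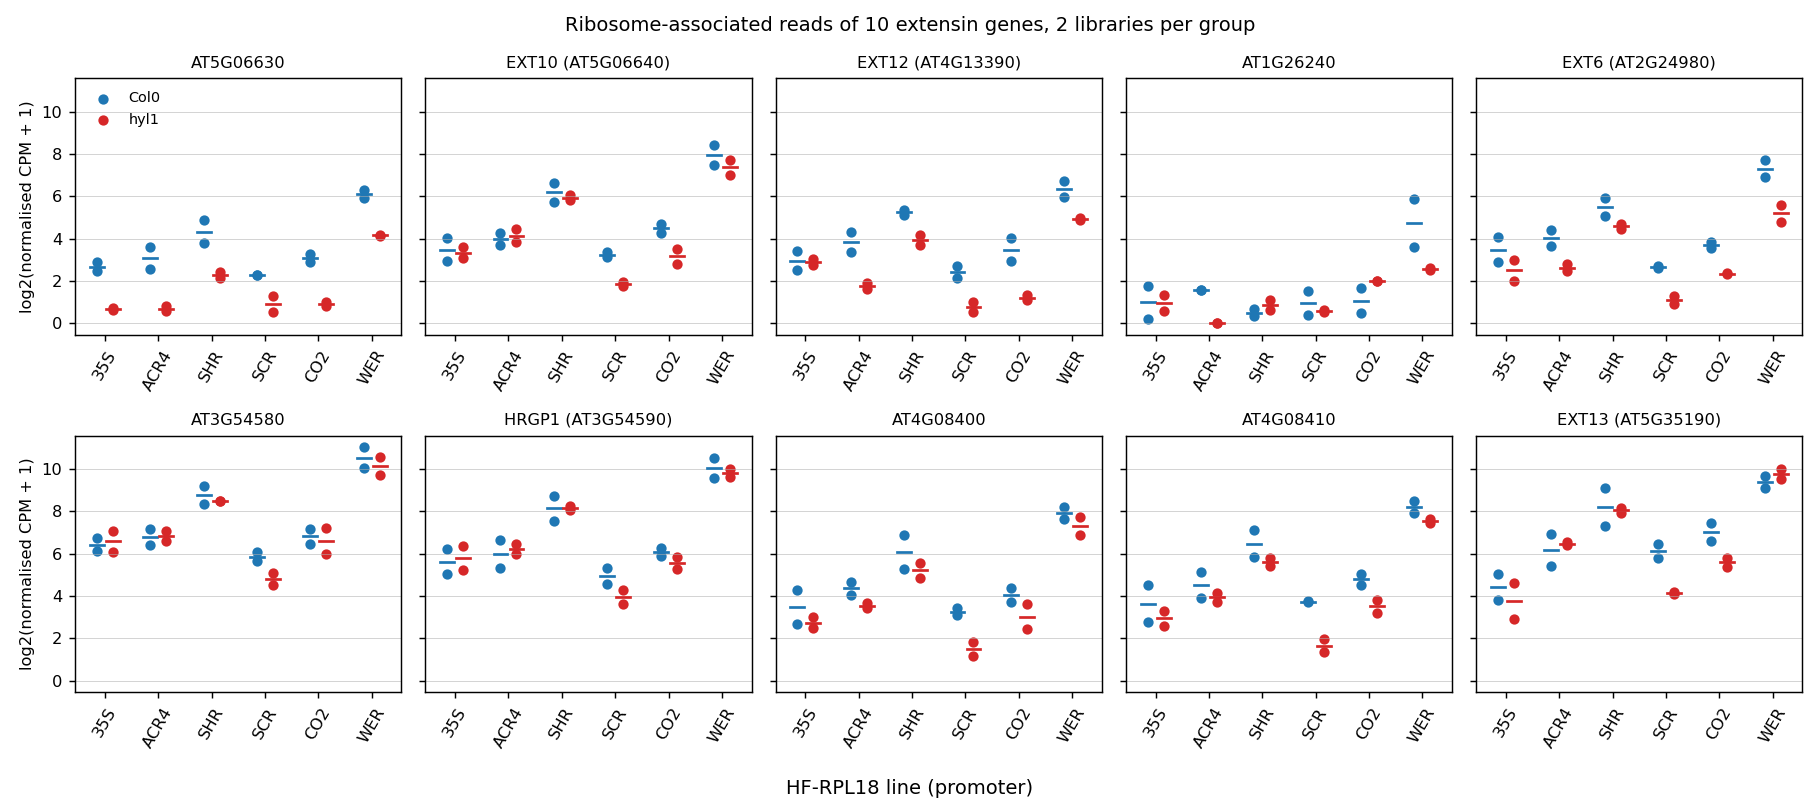
Level of each extensin gene as log2(normalised CPM + 1) on the vertical axis by HF-RPL18 line on the horizontal axis, with a point for each library and a short bar at the mean of the 2 replicates (Col0 blue, hyl1 red). WER is the highest line in all 10 panels and SHR is second in most, while the red points lie below the blue ones in all 6 lines for AT5G06630.

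Each layer line was tested against the mean of the 4 other layer lines with edgeR's quasi-likelihood test, in Col0 and in hyl1 separately, and a gene was called at a Benjamini-Hochberg adjusted p under 0.05 over all tested genes. The 5 comparisons of a genotype share their libraries. The 10 genes were chosen with earlier results of these libraries known. Their counts of calls and adjusted p-values in these layer comparisons are therefore descriptions of these libraries. EXT12 is counted among the 10 without a test of its own. In the Col0 WER line 10 of 10 extensin genes were called higher, where 14.9% of all tested genes were. Their log2 fold changes ran from 2.40 to 4.99 with a median of 3.49, and the median of all tested genes was 0.01. EXT10 was higher by 3.61 ± 0.28 (SE; edgeR adjusted p = 1.7e-07), AT5G06630 by 3.05 ± 0.30 (edgeR adjusted p = 9.2e-07) and EXT13 by 2.40 ± 0.40 (edgeR adjusted p = 0.00019). The value of AT1G26240, 4.99 ± 0.64, rested in part on replicate 1, which had 529 counts against 132 in replicate 2.

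In hyl1 the WER line gave 10 of 10 called higher as well, against 16.8% of all tested genes, with a median log2 fold change of 3.77. Among the 9 genes other than AT1G26240 the values ran from 2.90 for EXT6 to 4.22 for AT4G08400. AT1G26240 had no counts in the hyl1 ACR4 line, so that its fitted changes between hyl1 lines depend on the prior count and are not given; with its level there set to 3 counts over the group, the median stayed 3.77. Leaving out any 1 library left 10 of 10 called in either genotype. Epidermal markers were also high in the Col0 WER line. The summed level of 6 epidermal fate genes was 178 to 210 CPM in Col0 WER against 120 to 126 in Col0 ACR4, 36.6 to 53.4 in SHR and 22.9 to 55.4 in SCR. That of 12 root hair genes was 404 to 425 CPM in WER against 240.4 to 261 in ACR4, 266 to 294 in SHR and 110 to 225.7 in SCR. In hyl1 WER the epidermal fate sum was only 40.7 to 71.5 CPM while the root hair sum was 338 to 393 CPM, and the part of these cell types in the extensin values was not tested.

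The SHR line was the second place where the genes were high. In Col0, 7 of 10 were called higher, where 9.6% of all tested genes were, with log2 fold changes of 1.17 to 1.46 among the 7. HRGP1 was higher by 1.46 ± 0.37 (SE; edgeR adjusted p = 0.0094), and EXT13 by 1.21 ± 0.42, which missed the threshold (edgeR adjusted p = 0.053). AT5G06630 also missed it at 0.86 ± 0.34 (edgeR adjusted p = 0.088). These calls depended on 1 library, because without Col0 SHR replicate 2 none of the 10 was called. That replicate held 2083 counts of EXT13 and 2263 of AT3G54580, against 515 and 1042 in replicate 1. In hyl1, 8 of 10 were called higher, where 7.15% of all tested genes were, and with either hyl1 SHR library left out 3 were. Stele markers summed to 573 to 589 CPM in Col0 SHR and to 430 to 449 CPM in hyl1 SHR, with none of the 11 at 0 in the line. In Col0 35S they summed to 421 to 446 CPM. The hyl1 SHR values overlapped with those of hyl1 35S, 426 to 467 CPM, and of hyl1 WER, 372 to 655 CPM.

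In the SCR line the genes were low. In Col0, 8 of 10 were called lower, where 1.34% of all tested genes were, and in hyl1 8 of 10 were called lower against 8.47%. EXT6 was lower by a log2 change of −2.69 ± 0.44 in Col0 (SE; edgeR adjusted p = 0.00057), and AT4G08410 by −3.95 ± 0.58 in hyl1 (edgeR adjusted p = 9.7e-05). Without Col0 SCR replicate 1, the library with the high endodermal markers, 2 were called in Col0. The lines it was set against included WER and SHR. Against ACR4 and CO2 alone, the layer lines of its own run, 10 of 10 were negative in Col0 with a median of −1.05, but edgeR called 0, with 7 at an unadjusted p under 0.05. In hyl1 the same comparison within the run gave a median of −1.98 and 7 called lower.

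In the ACR4 and CO2 lines few genes were called, which does not show that differences were absent. In Col0, 1 of 10 genes was called in ACR4, EXT10 at −1.51 ± 0.37 (SE; edgeR adjusted p = 0.011), against 3.76% of all tested genes called lower, and 0 of 10 in CO2, against 4.44%, where 8 had an unadjusted p under 0.05 in edgeR. DESeq2 called 5 in ACR4 and 4 in CO2. In hyl1 ACR4 1 gene was past the threshold, AT5G06630 at −2.10 ± 0.55, against 0.719% of all tested genes called lower. As it was chosen for low counts in hyl1, this is a description. Against SCR and CO2 alone it was −0.54 ± 0.61. EXT10 and EXT12 were called lower in hyl1 CO2, against 1.48%. At an unadjusted p under 0.05 edgeR gave 7 in Col0 ACR4, 2 in hyl1 ACR4 and 10 in hyl1 CO2. In hyl1 CO2 the 9 genes other than AT1G26240 ran from −1.95 to −0.86, while AT1G26240 at its bound was at 1.77. Some of these values turned when ACR4, SCR and CO2 were compared among themselves. There, EXT10 in hyl1 ACR4 was at 1.86 ± 0.39, called higher (edgeR adjusted p = 0.022), while it was −0.36 ± 0.36 against all 4 lines.

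**Figure D3:**
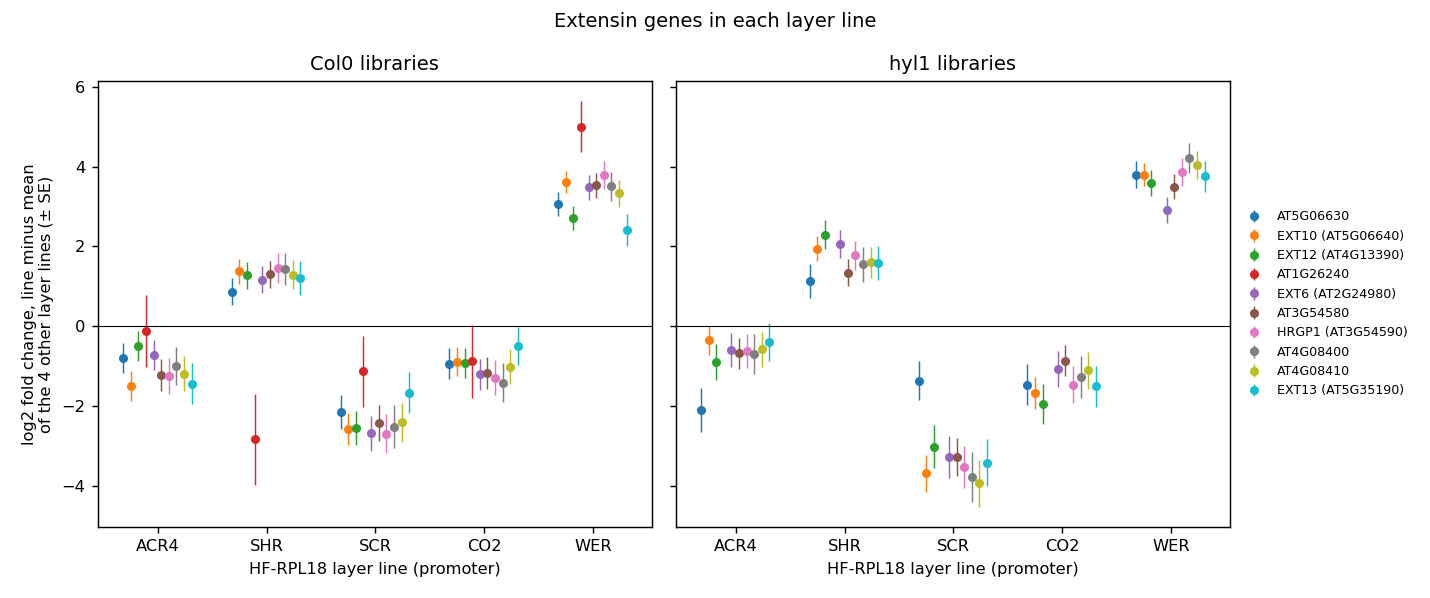
Log2 fold change of each extensin gene between a layer line and the mean of the remaining 4 (vertical axis, points with ± 1 SE) for the 5 layer promoters, in Col0 on the left and in hyl1 on the right. All genes shown lie above 2 in WER in both genotypes; AT1G26240 is left out on the right because it had 0 counts in hyl1 ACR4.

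EXT13 differed from AT3G54580 in its distribution over the lines. Its counts relative to those of AT3G54580 were 0.0986 to 0.300 in the 4 libraries of the 35S line and 0.372 to 1.31 in the 20 libraries of the layer lines, so that the ranges did not overlap. Among the Col0 layer lines the ratio was 0.385 and 0.526 in WER but 1.12 and 1.31 in SCR and 1.09 and 1.21 in CO2, again without overlap. Col0 SHR, at 0.494 and 0.920, and Col0 ACR4, at 0.847 and 0.499, overlapped with WER. The hyl1 libraries did not repeat this order. There, WER at 0.876 and 0.677 overlapped with SCR at 0.519 and 0.719 and lay above CO2 at 0.372 and 0.640. In some groups the 10 genes moved together between replicates. In Col0 35S, replicate 2 was above replicate 1 for 10 of 10 genes with a median ratio of 2.38. In Col0 WER the ratio was below 1 for 10 of 10 with a median of 0.578, and in Col0 ACR4 for 10 of 10 with a median of 0.534. In hyl1 SHR, by contrast, 5 of 10 were above 1, and in hyl1 SCR 7 of 10. The 10 genes are thus not independent measurements of a condition.

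The second question of the design was how hyl1 differs from Col0. Because this difference was used in choosing the genes, its values are a description with no p-value for any of the 10, and nothing is read from the counts of genes past the threshold. Over the mean of the 6 lines, 10 of 10 log2 fold changes were negative. Of these, 6 were past the threshold, where 12% of all tested genes were called lower. Their median was −1.17, or −1.0 with AT1G26240 at its bound, and that of all tested genes −0.07.

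AT5G06630 had the largest difference of the 10, a mean log2 fold change of −2.71 ± 0.22 (SE), or 6.54-fold lower in hyl1. Its counts were 29 and 82 in Col0 35S against 4 and 5 in hyl1, 96 and 41 in Col0 ACR4 against 3 and 4, and 42 and 109 in Col0 SHR against 16 and 12. They were 26 and 25 in Col0 SCR against 3 and 10, 33 and 43 in Col0 CO2 against 6 and 4, and 729 and 710 in Col0 WER against 154 and 167. Both hyl1 libraries were below both Col0 libraries in all 6 lines. On the CPM scale the WER values were 79.0 and 59.9 in Col0 against 16.7 and 17.3 in hyl1. By line the log2 fold changes ran from −3.65 in ACR4 to −1.99 in SCR. A mean below that of Col0 in 6 of 6 lines was also found for EXT12, EXT6, AT4G08400 and AT4G08410, and for 4.68% of all tested genes.

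EXT10, the near neighbour of AT5G06630, moved far less, at −0.69 ± 0.18 on average. Its levels in CPM were 6.75 and 15.3 in Col0 35S against 11.2 and 7.53 in hyl1, 18.6 and 12.2 in Col0 ACR4 against 13.2 and 21.0, and 52.5 and 99.6 in Col0 SHR against 56.2 and 66.0. In these lines the genotypes overlapped. They did not in SCR, with 9.33 and 7.73 CPM in Col0 against 2.90 and 2.45 in hyl1, nor in CO2, with 18.6 and 24.8 against 10.4 and 6.04. In WER they overlapped again, with 349 and 180 CPM in Col0 and 128 and 213 in hyl1.

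The pair can be set against each other within a library, where depth and scaling cancel. AT5G06630 made up 18.5% to 40.3% of the counts of the pair in the 12 Col0 libraries and 3.45% to 13.6% in 11 of the 12 hyl1 libraries. The exception was hyl1 SCR replicate 2, at 37.0% with an exact 95% binomial interval of 19.4% to 57.6%, from 10 and 17 counts. In the deepest group the shares were 18.5% (17.3% to 19.7%) and 24.9% (23.4% to 26.6%) in Col0 WER against 11.6% (9.89% to 13.4%) and 7.50% (6.44% to 8.67%) in hyl1 WER. These intervals are exact, and cover counting error only. AT5G06630 was picked for low counts in hyl1, so its lower share there is a description. The counts of EXT10 may also hold reads of AT5G06645, which overlaps it.

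**Figure D4:**
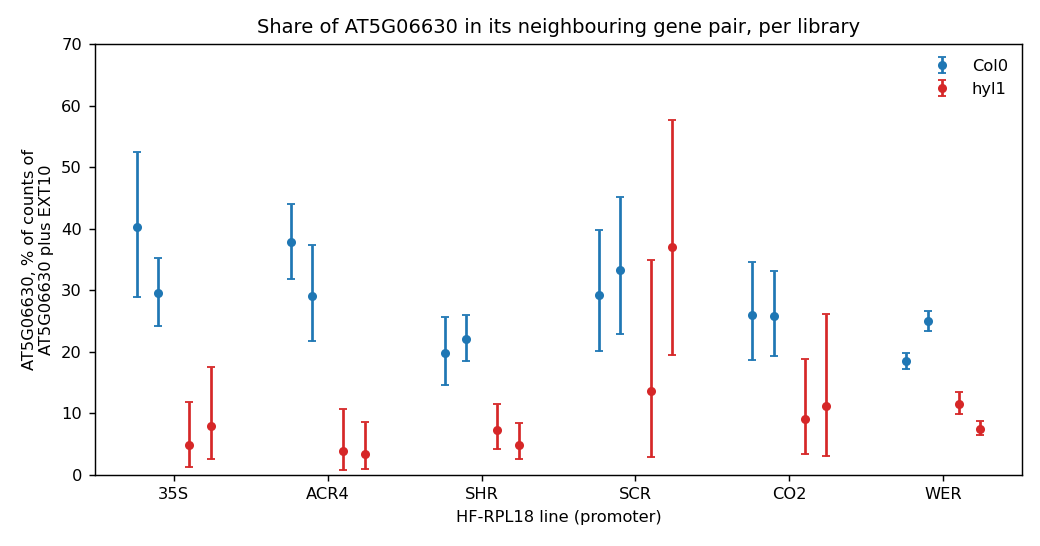
AT5G06630 as a percentage of the counts of AT5G06630 plus EXT10 (vertical axis) in each library by line (horizontal axis), with exact 95% binomial intervals as bars (Col0 blue, hyl1 red). The Col0 libraries lie between 18.5% and 40.3%, and 11 of the 12 hyl1 libraries lie between 3.45% and 13.6%.

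EXT12 was lower in hyl1 by −1.85 ± 0.21 on average, but not in every line alike. In the 35S line the levels of 4.71 and 9.78 CPM in Col0 and 7.38 and 5.85 in hyl1 overlapped. In ACR4 they were 18.7 and 9.28 against 2.08 and 2.81, in CO2 6.74 and 15.4 against 1.56 and 1.13, and in SCR 3.40 and 5.57 against 0.457 and 1.01 CPM. In SHR they were 34.4 and 40.4 against 16.9 and 11.9, and in WER 105 and 62.1 against 28.6 and 30.4 CPM. The genotypes did not overlap in the 5 layer lines, where the log2 fold changes ran from −3.01 in CO2 to −1.37 in SHR, while that in 35S was −0.16.

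EXT6, which shares a run of 101 bases with AT5G06630, was lower by −1.61 ± 0.21. Its WER levels were 211 and 119 CPM in Col0 and 47.7 and 26.6 in hyl1, and those in SCR 5.18 and 5.57 against 0.915 and 1.44. Its log2 fold changes by line ran from −2.17 in SCR to −0.98 in SHR. The near-identical pair AT4G08400 and AT4G08410 was lower by −1.14 ± 0.24 and −1.21 ± 0.22, and its 2 genes cannot be separated with certainty. The ratio of the first to the second was 0.523 to 1.11 over the 24 libraries.

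AT3G54580 and HRGP1, neighbours that rank with EXT13 as the genes with the highest level, differed least, by −0.28 ± 0.19 and −0.28 ± 0.21. In WER the levels of HRGP1 were 1465 and 770 CPM in Col0 and 788 and 1023 in hyl1. These overlapped, as did those of AT3G54580 in WER. EXT13 had a mean of −0.68 ± 0.24 that combined a higher level in hyl1 in WER (0.39) with a lower one in SCR (−2.10) and CO2 (−1.50). Its WER levels of 803 and 547 CPM in Col0 and 742 and 1024 in hyl1 overlapped.

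AT1G26240 was the least regular. It had 17 and 16 counts in Col0 ACR4 and 0 in both hyl1 ACR4 libraries, which is at least 7.32-fold lower when the hyl1 group is set to 3 counts. In WER it had 529 and 132 counts in Col0 and 48 and 46 in hyl1. Without Col0 WER replicate 1 its log2 fold change in that line was −1.16 in place of −2.77. In CO2 the direction was the opposite, with 2 and 11 counts in Col0 and 17 and 16 in hyl1, and the other lines had 1 to 31 counts.

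**Figure D5:**
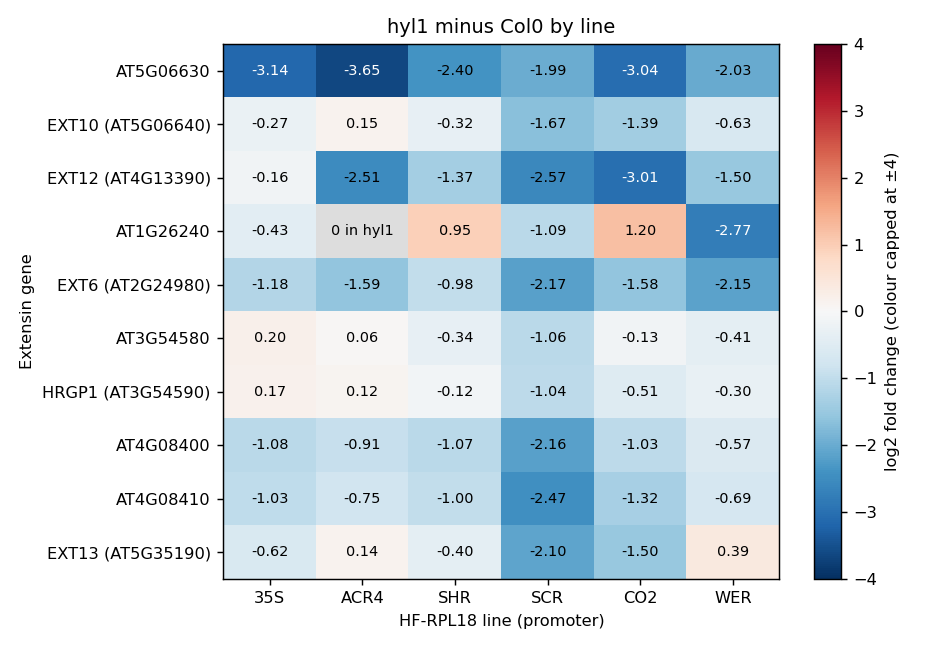
Log2 fold change of hyl1 minus Col0 (number and colour, blue for lower in hyl1) for each extensin gene (rows) in each HF-RPL18 line (columns), with the grey square marking AT1G26240, which had 0 counts in hyl1 ACR4. AT5G06630 is at −1.99 or below in all 6 lines, while AT3G54580 and HRGP1 are below −1 in SCR alone.

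Among the 10 genes, chosen with this difference known, the lower values were most widely shared in SCR and CO2, which is a description only. Both hyl1 libraries were below both Col0 libraries for 9 of 10 genes in SCR, where 22.1% of all tested genes behaved so, and for 8 of 10 in CO2, where 18.7% did. The counts were 5 in ACR4 (34.4% of all tested genes), 5 in WER (34.3%), 4 in SHR (18.1%) and 1 in 35S, AT5G06630 (20.8%). The sum of 12 root hair markers was lower in hyl1 without overlap in SCR and CO2, but also in SHR and WER. It was 110 and 225.7 CPM in Col0 SCR and 70.3 and 77.6 in hyl1 SCR. In CO2 it was 242 and 233.4 CPM in Col0 against 146 and 130 in hyl1. The SHR sums were 266 to 294 CPM in Col0 against 182 to 188 in hyl1, and the WER sums 404 to 425 against 338 to 393. In 35S they overlapped, at 128 to 150 against 120 to 135 CPM. None of the 12 genes was at 0 in both libraries of a group. In the WER line the epidermal fate sum was 178 to 210 CPM in Col0 and 40.7 to 71.5 in hyl1, and the sum of 11 stele markers was 137 to 140 against 372 to 655 CPM, and that of 6 root cap markers 344 to 460 against 90.9 to 101 CPM. In the ACR4 line, where AT5G06630 differed most, the epidermal fate sum was 120 to 126 CPM in Col0 and 34.4 to 38.6 in hyl1, and the root hair sum 240.4 to 261 against 260 to 267. Stele markers there summed to 158 to 173 CPM against 309 to 314, endodermal markers to 40.8 to 46.2 against 166 to 194, and root cap markers to 543 to 570 against 1098 to 1208. The part of these shifts in cell type in the extensin values was not tested.

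In the 35S, SHR and CO2 lines alone, the mean differences were −2.85 ± 0.30 for AT5G06630, −1.51 ± 0.25 for EXT12 and −1.24 ± 0.25 for EXT6. Without the WER line they were −2.84 ± 0.26, −1.92 ± 0.23 and −1.49 ± 0.21. Past the threshold by line were 1 gene in 35S (AT5G06630; 0.00861% of all tested genes called lower), 4 in ACR4 (8.42%), 0 in SHR (0.00431%), 1 in SCR (1.37%), 2 in CO2 (0.0603%) and 4 in WER (23.3%), all lower in hyl1. These counts come from the values known when the genes were chosen. At an unadjusted p under 0.05 edgeR gave 3 in SHR and 8 in SCR, and DESeq2 called 1 and 7. The 1 in 35S was 0 with any of the 4 libraries of that line left out. The median of all tested genes was −0.24 in the WER line, so that values there are to be read relative to it.

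Whether the difference between hyl1 and Col0 varied between the 6 lines was tested for each gene with an F test of the interaction. None of the 10 was called by edgeR, where 17.8% of all tested genes were. At an unadjusted p under 0.05 there were 2, EXT12, which counts as a description, and AT1G26240, and DESeq2 called 2. The test uses the same libraries as the differences known when the genes were chosen. A missed threshold does not show that the difference was the same in every line.

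Other extensins and the proteins that act on them were taken from lists made with earlier results of these data known. Their counts and adjusted p-values, here and in the lists that follow, are therefore descriptions of these libraries. Of 10 other classical extensin genes 9 were tested. In the Col0 WER line 8 of the 9 were called higher, where 14.9% of all tested genes were. AT3G28550 was at 5.11 ± 0.40 and EXT4 at 4.82 ± 0.37 (SE), both named after their values were seen. In the mean hyl1 difference 1 of 9 was called, where 12% of all tested genes were called lower. It was EXT11, at −1.11 ± 0.27 (SE; edgeR adjusted p = 0.00687), which is annotated as a pseudogene in RefSeq. In the WER line alone 5 of 9 were called lower in hyl1, where 23.3% of all tested genes were. EXT3, needed for wall assembly in the embryo, is also named here after its values were seen. It had 4601 and 2282 CPM in Col0 WER and 1243 and 1211 in hyl1 WER, a log2 change of −1.49 ± 0.51.

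The leucine-rich repeat extensins (LRX), which join a leucine-rich repeat domain to an extensin-like tail, were all called higher in the Col0 WER line, 5 of 5 beside the same 14.9% of all tested genes, with a median of 1.94. LRX2, which acts with LRX1 in root hairs, was the only one called in the mean hyl1 difference, at −1.23 ± 0.26 (SE; edgeR adjusted p = 0.00242). Among enzymes that modify extensins, 12 of 13 were tested, 4 were called lower in hyl1 and 1 higher. Of all tested genes, 12% were called lower and 7.84% higher in that difference. The prolyl hydroxylase P4H2 was at −0.94 ± 0.10 (edgeR adjusted p = 4.7e-06) and P4H5, another prolyl hydroxylase, at −0.47 ± 0.15 (edgeR adjusted p = 0.0349). The arabinosyltransferase XEG113 was at −0.32 ± 0.09 (edgeR adjusted p = 0.0176), and AT3G57630 (ExAD), which adds the fourth arabinose, at 0.34 ± 0.12 (edgeR adjusted p = 0.0458).

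The next 3 lists stand beside 12% of all tested genes called lower in the mean hyl1 difference. Of 5 class III peroxidases of root hairs 3 were called lower in hyl1, among them RHS19 at −1.11 ± 0.14 (SE; edgeR adjusted p = 2.2e-05) and AT4G26010 at −0.69 ± 0.11 (edgeR adjusted p = 0.0002). Of 12 root hair genes 5 were called lower. They included PRP1 and PRP3, proline-rich wall proteins, at −2.01 ± 0.25 and −1.04 ± 0.16 (edgeR adjusted p = 2.9e-05 and 0.0002), and RSL4, a transcription factor that drives hair growth, at −1.25 ± 0.26 (edgeR adjusted p = 0.00246). Of 5 tested epidermal fate genes 3 were called lower, MYB23 at −1.17 ± 0.31, CPC at −0.95 ± 0.25 and GL2 at −0.69 ± 0.16 (edgeR adjusted p = 0.0115, 0.0107 and 0.00436).

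Markers of inner layers were called in both directions. Of 11 stele genes 4 were called higher and 2 lower, with SEOR1, a phloem protein, at 2.03 ± 0.20 (SE; edgeR adjusted p = 2.2e-06), and SKOR, a potassium channel, at −1.28 ± 0.27 (edgeR adjusted p = 0.00258). Of 9 endodermal genes 5 were called higher and 1 lower. PER64, a peroxidase of the Casparian strip, was at 1.49 ± 0.23 (edgeR adjusted p = 0.00022). CASP5, a scaffold protein of that strip, was at −2.06 ± 0.42 (edgeR adjusted p = 0.00199). Neither of 2 cortex genes was called, with AT1G62500, the gene of the CO2 promoter, at −0.22 ± 0.59 (edgeR adjusted p = 0.845), and 1 of 6 root cap genes was, CEL5 at −0.92 ± 0.23 (edgeR adjusted p = 0.00752). Over all tested genes 7.84% were called higher and 12% lower.

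Across the 24 libraries the 10 genes had pairwise Pearson correlations of log2 level from 0.510 (AT1G26240 and EXT13) to 0.991 (AT4G08400 and AT4G08410), with a median of 0.901. All values below 0.75 involved AT1G26240. The libraries share lines and runs, so these are descriptions. Of 15653 other genes, those most like the mean of the 10 were EXT11 (0.963), AT3G28550 (0.961), LRX1 (0.931), AT1G23720 (0.921), PRP3 (0.909) and IRX14 (0.860). AT3G28550 and AT1G23720 are further extensin genes, and IRX14 encodes a xylan glycosyltransferase. Without the 4 libraries of the WER line the same correlations were 0.933, 0.901, 0.870, 0.815, 0.875 and 0.726.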

How the data were processed

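The authors deposited 1 table of unnormalized read counts, with 33602 genes and 24 libraries. The genome build and tools named in the submitters' processing notes are TAIR10, TopHat2 2.0.11, Bowtie2 2.2.1.0, featureCounts of Subread, and CASAVA 1.8.2. The use of strand and of reads with several matches is not given in the sources used here. The tests were run on these counts in edgeR 4.0.16 under R 4.3.3 with TMM scaling and 12 groups in 1 design. filterByExpr removed genes of low count, with settings of 10 for the minimum and 15 for the minimum total. SE are those of log2 fold changes in this fit, and SD are over 2 libraries. Alternatives were DESeq2 1.42.0, its size factors, no filter, a replicate block, lines fitted alone, the mean without the WER line and each library left out in turn. A mean over 35S, SHR and CO2, contrasts within 1 run and the removal of 10 dominant transcripts were added after seeing the data. The fit was tested on simulated counts. Names and coding sequences came from RefSeq TAIR10.1. The members, lists and tests were chosen with earlier results of these data known. All 10 members are named. Of other lists, up to 4 called genes with the largest mean hyl1 change were eligible, or the 2 most expressed, and of all other genes the 6 most similar at a mean log2 CPM of at least 2. List genes named in the WER line were chosen after their values were seen.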

Additional observations from a re-analysis of the deposited data

How the results depend on the processing

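In each sentence the count is of the 10 extensin genes called. The mean hyl1 count of 6 was 6 to 8 with any 1 library left out, and the WER layer counts of 10 did not move in either genotype. DESeq2 gave 1 in place of 0 in SHR and 7 in place of 1 in SCR for hyl1 against Col0, 5 in place of 1 and 4 in place of 0 for Col0 ACR4 and CO2 layers, 2 in place of 1 and 4 in place of 2 for the hyl1 ones, and 2 in place of 0 for the interaction. DESeq2 size factors in edgeR gave 2 for the Col0 ACR4 layer. With no filter the hyl1 effect in SCR and the Col0 ACR4 layer gave 2 and the hyl1 ACR4 layer 0. Replicate numbers did not pair the samples, since deviations of same-numbered libraries of a line correlated at −0.088 to 0.070; the replicate block gave 0 for the hyl1 effect in 35S and for the hyl1 ACR4 layer and moved no other count by over 1.5 times. Each line fitted alone gave 0 for SCR, CO2 and WER, with fewer samples. Among ACR4, SCR and CO2 alone, which share a run of library numbers, the Col0 ACR4 and SCR layers gave 0 and the hyl1 CO2 layer 1. That 1 was AT1G26240, called higher, whose value depends on its 0 counts in hyl1 ACR4. Neither EXT10 nor EXT12, called lower in the main fit, was called in that layer. There, against fewer lines, the sign reversed for EXT10 in the ACR4 layer (0.18 in Col0, 1.86 in hyl1) and the hyl1 CO2 layer (0.29), and for EXT12 in the hyl1 CO2 layer (0.0081). With 1 library left out the counts for hyl1 against Col0 were 0 to 0 in 35S, 1 to 3 in ACR4, 0 to 0 in SHR, 0 to 1 in SCR, 0 to 1 in CO2 and 2 to 4 in WER. In Col0 layers they were 0 to 3 in ACR4, 0 to 9 in SHR, 2 to 9 in SCR and 0 to 2 in CO2; in hyl1 layers 0 to 2 in ACR4, 3 to 8 in SHR, 8 to 9 in SCR and 0 to 5 in CO2; for the interaction 0 to 2. Where a count moved, the cause was not tested. Of all tested genes, DESeq2 called 68, 62, 764 and 117 in 35S, SHR, SCR and CO2 for hyl1 against Col0, where edgeR called 23, 19, 440 and 34, and 1324 against 723 in the hyl1 ACR4 layer. Lines fitted alone called 500, 7847, 38, 1, 90 and 258 in 35S, ACR4, SHR, SCR, CO2 and WER, against 23, 3415, 19, 440, 34 and 9069; the mean effect called 2738 without WER and 775 in 35S, SHR and CO2, against 4607. Among ACR4, SCR and CO2 alone 844 were called in the Col0 SCR layer, 329 in the hyl1 ACR4 layer and 2728 in the hyl1 SCR layer, against 1510, 723 and 4991.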
